A study of Mus musculus with 6 samples.

Results

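Polycomb repressive complex 2 (PRC2) was described through the transcripts of its 10 subunit genes, Ezh1, Ezh2, Eed, Suz12, Jarid2, Mtf2, Phf19, Aebp2, Rbbp4 and Rbbp7, in mouse embryonic stem cells with and without a disruption of Bach1. The members are the rows of the deposited expression table whose symbol is one of these names. All 10 were found among 18518 gene symbols, and all 10 were expressed highly enough to be tested.

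PRC2 is the enzyme complex that methylates lysine 27 of histone H3 and so helps to keep developmental genes silent. EZH1 or EZH2 carries the catalytic site, EED and SUZ12 are needed for its activity and assembly, and RBBP4 or RBBP7 binds histones. Accessory proteins join in alternative sets: JARID2 and AEBP2 in one, and a Polycomb-like protein (MTF2, PHF19 or PHF1) in the other. Mouse embryonic stem cells without PRC2 can still self-renew, but they differentiate poorly.

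The cells were of the E14Tg2A line, an established line of mouse embryonic stem cells, and RNA was sequenced from 3 BACH1-KO and 3 WT libraries. In BACH1-KO cells the Bach1 gene, which codes for a heme-binding transcription factor, had been targeted with CRISPR/Cas9 from a lentiCRISPR plasmid that was transfected transiently, followed by puromycin and the sorting of single-cell clones. WT cells were not edited, as far as the labels say, and both genotypes spent 2 days in serum medium with 200 units/ml of murine leukemia inhibitory factor. The labels do not say how many clones the BACH1-KO libraries come from, nor whether the libraries are separate cultures, so the p-values reflect only how these libraries vary, which may be technical variation. One ending of the sample titles is common to 1 BACH1-KO sample and 2 WT samples, another to 1 sample of each genotype, and 1 BACH1-KO title has an ending of its own. The labels do not say whether an ending stands for a day or a batch, and the table's columns cannot be matched to titles, so no value within such a batch could be computed.

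Levels are FPKM as deposited, which count fragments relative to transcript length and to all mapped fragments. Log2 fold changes compare BACH1-KO with WT after adding 1 to each FPKM value (positive when higher in BACH1-KO), and each has its standard error (SE). Every adjusted p is from limma with Benjamini-Hochberg adjustment over the 12187 genes whose mean reached 1 FPKM. Only genes with an adjusted p under 0.05 are said to have risen or fallen. Read counts were not used here, so the absolute depth is unknown. The steps between low values gave relative depths of 1.17, 1.17 and 1.01 in BACH1-KO and 1.00, 1.11 and 1.06 in WT libraries. Bach1 itself stood at 10.5, 10.4 and 10.4 FPKM in BACH1-KO and 7.97, 8.39 and 8.47 FPKM in WT libraries (log2 fold change 0.30, SE 0.05, adjusted p = 5.15e-04). An edit that disrupts a reading frame need not lower the transcript, so this level does not check the genotype. The genotypes differed over much of the transcriptome: 77% of the tested genes were called, 37.3% as higher and 39.7% as lower, and in 79.3% the groups did not overlap.

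All 8 embryonic stem cell markers examined were expressed in every library, and 7 of them fell. Of all tested genes 39.7% fell, and of those at a mean of 200 FPKM or more 56.8% did. Among the markers Tdgf1, a Nodal co-receptor, had the largest fall, with 242 ± 6.82 FPKM in BACH1-KO and 1130 ± 72.0 FPKM in WT cells (log2 fold change −2.22). The log2 fold change was −0.70 for Esrrb, −0.62 for Dppa5a, −0.55 for Sox2 and −0.30 for Pou5f1. Nanog was the 1 marker that passed as higher (0.07, limma adjusted p = 0.0419), a call lost without any 1 of the 6 libraries (adjusted p = 0.0521 to 0.125). Nanog lies on chromosome 6, whose tested genes had a median log2 fold change of 0.32. Relative to that chromosome median, Nanog was at −0.25. Of 12 hepatocyte markers, 12 rose, among them Fgg, Trf, Serpina1b and Ttr, where 37.3% of all tested genes did. All but Trf had WT means under 1 FPKM and reached the filter only through their BACH1-KO values. For these genes the count could hardly have come out otherwise. The summed level of the 12 was 891 to 924 FPKM in BACH1-KO libraries and 11.1 to 16.7 FPKM in WT libraries. Markers of fibroblast feeder cells summed to 123 to 128 FPKM in BACH1-KO and 251 to 268 FPKM in WT libraries, and of 4 tested 1 rose and 3 fell. Vim fell, with 54.9 ± 1.35 FPKM in BACH1-KO and 186 ± 9.31 FPKM in WT cells. Thy1 and Pdgfrb fell too (−0.82 and −1.05). Fn1 rose (0.27), with 58.8 ± 1.62 FPKM in BACH1-KO and 48.7 ± 0.888 FPKM in WT cells. Vim and Fn1 together made up most of the feeder marker sum in both genotypes. The other 6 feeder markers were under the filter. S100a4 was listed at 0 in BACH1-KO libraries and at 1.34 to 1.77 FPKM in WT libraries. Col1a1 was at 0.209 to 0.373 FPKM in BACH1-KO and 0.587 to 0.750 FPKM in WT libraries. Col1a2, Col3a1, Postn and Lum were below these WT levels of Col1a1 in every library. All of Col1a2, Col3a1, Postn and Lum were higher in every BACH1-KO library than in any WT library. Col1a2, for example, had means of 0.177 FPKM in BACH1-KO and 0.0704 FPKM in WT cells. Over all 6331 genes under the filter, the groups were separate with BACH1-KO above WT in 39.9% and below in 7.04%. The part of other cell types in the values below was not tested. In bulk RNA, fewer cells of a type and less RNA per cell cannot be told apart.

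The stretches before the transcription starts of Suz12, Ezh1 and Jarid2 are shown because these genes had the largest falls among the subunits. They are the 250 bases upstream of a start in RefSeq (GRCm38.p6), read 5′ to 3′ on the gene's own strand, at chr11:79992856-79993105 (plus strand), chr11:101226464-101226713 (minus strand) and chr13:44730524-44730773 (plus strand, the first of 2 starts listed for Jarid2). The Jarid2 window lies inside the GENCODE span of that gene (chr13:44729474-44921643), downstream of where the span begins. Capitals mark CCAAT or its reverse complement ATTGG, the box bound by the factor NF-Y.
Suz12: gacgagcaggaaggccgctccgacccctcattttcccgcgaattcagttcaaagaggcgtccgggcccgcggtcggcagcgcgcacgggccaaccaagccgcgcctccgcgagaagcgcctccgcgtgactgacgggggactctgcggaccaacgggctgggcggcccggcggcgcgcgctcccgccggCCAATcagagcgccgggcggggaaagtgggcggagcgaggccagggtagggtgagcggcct
Ezh1: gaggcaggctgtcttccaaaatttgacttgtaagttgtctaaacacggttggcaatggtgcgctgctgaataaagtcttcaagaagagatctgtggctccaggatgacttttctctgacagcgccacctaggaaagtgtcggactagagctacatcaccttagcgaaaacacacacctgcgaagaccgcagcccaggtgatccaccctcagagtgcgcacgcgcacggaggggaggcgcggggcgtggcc
Jarid2: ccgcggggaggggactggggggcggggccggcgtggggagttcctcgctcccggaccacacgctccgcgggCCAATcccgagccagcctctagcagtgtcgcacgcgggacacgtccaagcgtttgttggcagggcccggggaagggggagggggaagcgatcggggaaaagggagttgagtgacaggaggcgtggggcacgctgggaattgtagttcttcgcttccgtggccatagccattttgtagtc

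The box in the Suz12 window begins 61 bases before the start and that in the Jarid2 window 179 bases before it. The Ezh1 window has no match. Over all 10 genes, RefSeq listed 14 such windows, and 7 of them held CCAAT on either strand, against 33.8% of 32851 mouse promoter windows of the same length. The letters TGAGTCA, the core that BACH1 and AP-1 proteins can bind, were found in 0 of the 14 and in 4.46% of all windows. TTCNNNGAA, the palindrome bound by STAT proteins, was in 0 of the 14 and in 7.02% of all, and the E2F-type TTTCGCGC was in 0 and in 0.256%. Both strands were searched, and since CCAAT was the only one of the 4 motifs found, no matches of different motifs overlapped. In 11 of the 14 windows GC content was above 50% with a CpG observed-to-expected ratio above 0.6, the usual marks of a CpG island promoter, against 30.8% of all windows. These are descriptions of the sequence and say nothing about binding in these cells.

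Among the catalytic subunits, Ezh1 fell while Ezh2, the main methyltransferase of dividing cells, did not pass the threshold. Ezh1 (chr11:101191115-101226463, minus strand, mm10) was at 16.0, 16.8 and 15.3 FPKM in BACH1-KO libraries, against 25.6, 28.9 and 29.8 FPKM in WT libraries. The 3 BACH1-KO values were all below the 3 WT values, with means of 16.1 ± 0.734 FPKM in BACH1-KO and 28.1 ± 2.22 FPKM in WT cells (SD, n = 3 each). The log2 fold change was −0.77 (SE 0.06, adjusted p = 1.09e-05), and 20.6% of tested genes changed more.

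Ezh2 (chr6:47530139-47595341, minus strand) was at 71.6, 73.5 and 74.4 FPKM in BACH1-KO libraries, against 70.7, 71.5 and 73.3 FPKM in WT libraries. The groups overlapped, and the means of 73.2 ± 1.41 FPKM in BACH1-KO and 71.9 ± 1.33 FPKM in WT cells (SD, n = 3 each) differed by less than these SDs. The log2 fold change was 0.03 (SE 0.03, adjusted p = 0.488). Chromosome 6, where Ezh2 lies, had a median log2 fold change of 0.32 over its 570 tested genes, against −0.01 over all tested genes. Relative to that chromosome median, Ezh2 was at −0.29. With quantile normalization Ezh2 passed the threshold with a log2 fold change of 0.14 (adjusted p = 0.00328).

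Ezh1 accounted for 18.3%, 18.6% and 17.1% of the summed Ezh1 and Ezh2 FPKM in BACH1-KO libraries, against 26.6%, 28.7% and 28.9% in WT libraries. Every BACH1-KO share was below every WT share, with means of 18.0 ± 0.803% in BACH1-KO and 28.1 ± 1.31% in WT cells (SD, n = 3 each), a difference of −10.1 percentage points. A two-sided exact permutation test gave p = 0.1, the lowest value possible with 3 libraries in each group. The sum of both genes was 89.2 ± 1.37 FPKM in BACH1-KO and 99.9 ± 3.43 FPKM in WT cells.

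**Figure D1:**
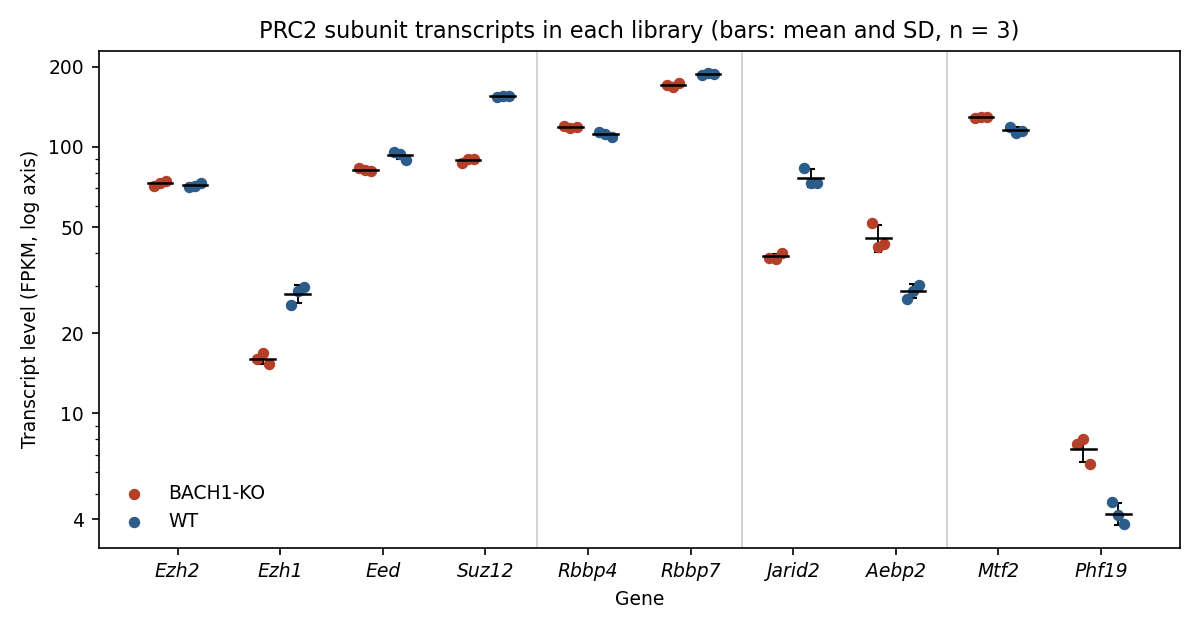
Level of each PRC2 subunit transcript (FPKM, log axis) in each of the 3 BACH1-KO (red) and 3 WT (blue) libraries, with mean and SD; vertical lines separate the core, the RBBP pair, the JARID2 and AEBP2 pair and the Polycomb-like pair. Suz12, Ezh1 and Jarid2 sit lower in BACH1-KO, Aebp2 and Phf19 sit higher, and the Ezh2 groups overlap.

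Of the other core subunits, Suz12 fell strongly and Eed slightly. Suz12 (chr11:79993106-80034123, plus strand), the scaffold that holds the core together and receives the accessory proteins, was at 87.4, 90.0 and 90.4 FPKM in BACH1-KO libraries. In WT libraries it was at 153, 156 and 156 FPKM. The groups were far apart relative to their spread, at 89.2 ± 1.65 FPKM in BACH1-KO and 155 ± 1.44 FPKM in WT cells (SD, n = 3 each), with a log2 fold change of −0.79 (SE 0.03, adjusted p = 1.50e-07).

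Eed (chr7:89954654-89980983, minus strand) codes for the subunit that reads trimethylated lysine 27 and stimulates the enzyme. It was at 83.5, 82.1 and 81.1 FPKM in BACH1-KO libraries, against 95.8, 94.1 and 89.6 FPKM in WT libraries. The groups did not overlap, and the log2 fold change was −0.18 (SE 0.03, adjusted p = 0.00176), smaller in size than that of 75.1% of tested genes. With quantile normalization the value was −0.04 and no longer passed (adjusted p = 0.290).

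The ratios among the core transcripts had other values in BACH1-KO than in WT cells. Suz12 had 1.22 ± 0.00446 times the FPKM of Ezh2 in BACH1-KO cells and 2.16 ± 0.0290 times in WT cells. Against Eed the ratio was 1.09 ± 0.0355 in BACH1-KO and 1.67 ± 0.0696 in WT cells (SD, n = 3 each). These ratios were chosen after the values were seen and carry no test. Genes at a mean of 50 to 200 FPKM, the range of Eed, Suz12 and Ezh2, had a median log2 fold change of −0.16 over 1578 genes, 54.4% lower and 29.2% higher.

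The histone-binding pair moved little and in opposite directions. Rbbp4 (chr4:129307100-129335370, minus strand), which also serves NuRD, SIN3 and chromatin assembly factor complexes, was at 119, 118 and 119 FPKM in BACH1-KO libraries and 114, 112 and 109 FPKM in WT libraries. It rose by a log2 fold change of 0.09 (SE 0.03, adjusted p = 0.0246), with no overlap between the groups. This call was lost in the limma fit without BACH1-KO column 1 or 3 or WT column 2 or 3 (adjusted p = 0.0529 to 0.0808), and quantile normalization gave 0.25.

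Rbbp7 (chrX:162760402-162779092, plus strand), its paralog, was at 171, 168 and 174 FPKM in BACH1-KO libraries, against 187, 189 and 188 FPKM in WT libraries. It was lower in every BACH1-KO library (log2 fold change −0.13, SE 0.03, adjusted p = 0.00202), and with quantile normalization the sign turned to 0.03 (adjusted p = 0.269). Its share of the summed pair was 59.0 ± 0.220% in BACH1-KO and 62.8 ± 0.632% in WT cells (SD, n = 3 each), a difference of −3.73 percentage points. The groups did not overlap, and the two-sided exact permutation p was again 0.1, the smallest possible. Of the 50-base stretches of the annotated transcripts, 17.2% in Rbbp4 and 11.2% in Rbbp7 match transcripts of other genes, read on either strand. These matches include the opposite-strand overlaps with other genes given further below. Part of the reads of Rbbp4 and Rbbp7 could thus have been assigned elsewhere.

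Jarid2 fell and Aebp2 rose, although both proteins belong to the same accessory set. Jarid2 (chr13:44729474-44921643, plus strand) codes for a DNA-binding protein of the Jumonji family that helps to bring PRC2 to its sites. It was at 38.4, 38.1 and 39.9 FPKM in BACH1-KO libraries, against 83.5, 73.3 and 73.0 FPKM in WT libraries. Every BACH1-KO value was far below every WT value, with means of 38.8 ± 0.936 FPKM in BACH1-KO and 76.6 ± 5.96 FPKM in WT cells (SD, n = 3 each). Its log2 fold change of −0.96 (SE 0.05, adjusted p = 1.38e-06) was the largest of the 10 subunits in size, and 12.9% of tested genes changed more.

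Aebp2 (chr6:140622663-140678472, plus strand) codes for a zinc-finger protein that stimulates the enzyme. It was at 51.7, 42.0 and 43.3 FPKM in BACH1-KO libraries, against 26.97, 28.8 and 30.4 FPKM in WT libraries. The 1st BACH1-KO column stood above the other two, and the groups did not overlap (log2 fold change 0.65, SE 0.08, adjusted p = 1.22e-04). Aebp2 lies on chromosome 6, and relative to that chromosome's median its log2 fold change was 0.33.

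Jarid2 made up 46.1 ± 2.95% of the summed Jarid2 and Aebp2 FPKM in BACH1-KO cells, against 72.7 ± 2.61% in WT cells (SD, n = 3 each). The order of the pair was thus reversed, with Aebp2 above Jarid2 in all 3 BACH1-KO libraries and below it in all 3 WT libraries. This share was chosen after the values were seen and carries no test. The genes whose profile over the 6 libraries was most like that of Jarid2, by the root mean square difference of centred log2(FPKM + 1), were Klf5 (0.0256), 1200014J11Rik (0.0277) and Hspd1 (0.0283). Klf5, a transcription factor of the self-renewal network, was at 36.1 ± 0.342 FPKM in BACH1-KO and 71.3 ± 6.55 FPKM in WT cells. The gene 1200014J11Rik was at 13.7 ± 0.197 FPKM in BACH1-KO and 27.4 ± 1.54 FPKM in WT cells. Hspd1 was at 301 ± 2.40 FPKM in BACH1-KO and 602 ± 34.3 FPKM in WT cells. Shared regulation of these genes with Jarid2 was not tested.

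Both Polycomb-like genes among the members rose. Mtf2 (chr5:108065674-108109004, plus strand), which codes for the main Polycomb-like protein of embryonic stem cells and helps to recruit PRC2 to CpG-rich DNA, was at 128, 129.9 and 130.0 FPKM in BACH1-KO libraries. In WT libraries it was at 119, 113 and 114 FPKM. The groups did not overlap, and the difference was small (log2 fold change 0.16, SE 0.03, adjusted p = 0.00139). With quantile normalization it was 0.33.

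Phf19 (chr2:34893757-34914026, minus strand), whose protein reads methylated lysine 36 of histone H3, was the least expressed subunit. It was at 7.65, 7.99 and 6.46 FPKM in BACH1-KO libraries, against 4.64, 4.14 and 3.84 FPKM in WT libraries. All BACH1-KO values exceeded all WT values (log2 fold change 0.68, SE 0.09, adjusted p = 1.79e-04). Phf1, the third Polycomb-like gene and not among the 10, was at 3.01 ± 0.364 FPKM in BACH1-KO and 2.54 ± 0.285 FPKM in WT cells and did not pass (adjusted p = 0.120).

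Jarid2 and Aebp2 together made up 37.7 ± 1.62% of the FPKM of the 5 accessory genes Jarid2, Aebp2, Mtf2, Phf19 and Phf1 in BACH1-KO cells, against 46.3 ± 0.318% in WT cells. Mtf2 had 3.33 ± 0.0739 times the FPKM of Jarid2 in BACH1-KO cells and 1.51 ± 0.0757 times in WT cells (SD, n = 3 each). Against Suz12, Mtf2 stood at 1.45 ± 0.0155 in BACH1-KO and 0.744 ± 0.0271 in WT cells. Mtf2 was therefore the more abundant transcript of that pair in BACH1-KO cells and the less abundant in WT cells. Phf19 made up 5.27 ± 0.570% of the summed Mtf2, Phf19 and Phf1 FPKM in BACH1-KO cells and 3.44 ± 0.252% in WT cells, with every BACH1-KO value above every WT value. These values were also chosen after the data were seen.

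**Figure D2:**
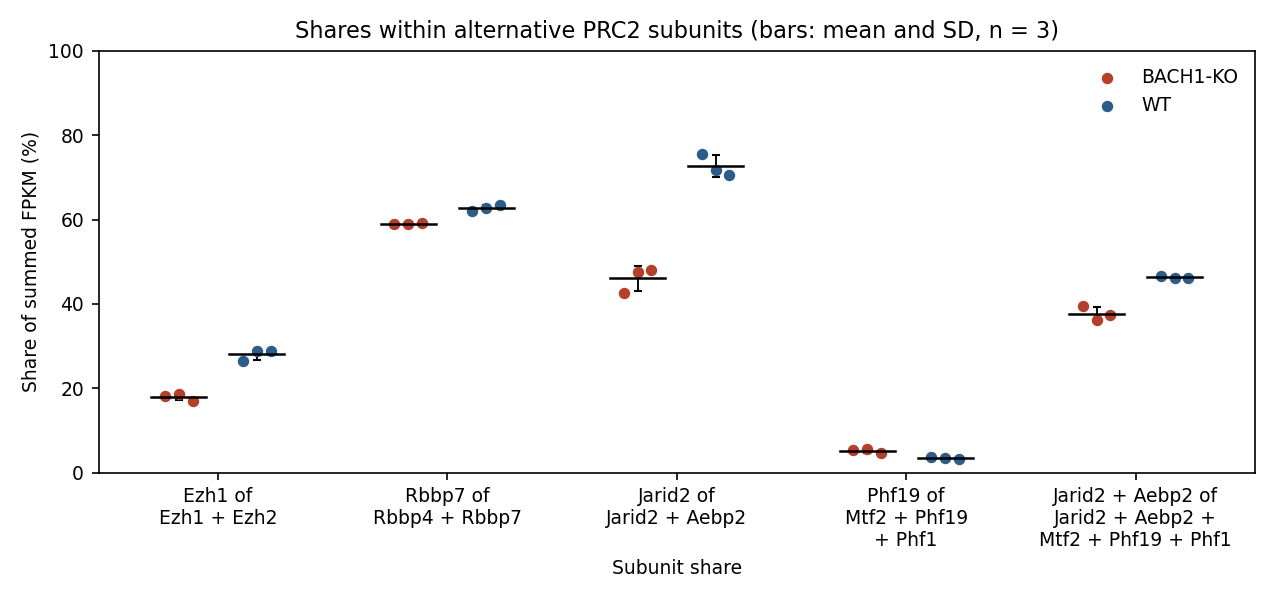
Share of summed FPKM (percent) within sets of subunit genes, in each of the 3 BACH1-KO (red) and 3 WT (blue) libraries, with mean and SD. The shares are those of Ezh1, Rbbp7, Jarid2, Phf19 and the Jarid2 plus Aebp2 pair. Jarid2 is set against Aebp2 of the same accessory set, so that share does not compare alternatives. The BACH1-KO points lie below the WT points in 4 of the shares, with the widest gap for Jarid2 (46.1% in BACH1-KO, 72.7% in WT), and above them for Phf19 (5.27% in BACH1-KO, 3.44% in WT).

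Over all 10 subunits, 4 rose, 5 fell and 1 did not pass, so 9 were called where 77% of all tested genes were. The groups did not overlap in 9 of the 10, against 79.3% of tested genes. These shares are near those of the whole table. The median log2 fold change was −0.05 for the subunits and −0.01 for all tested genes. Quantile normalization turned the subunit median to 0.09, with 5 higher and 3 lower. A change of at least 0.5 on the log2 scale was seen in 5 subunits, Jarid2, Suz12, Ezh1, Phf19 and Aebp2, and in 38.0% of tested genes. When limma tested against a fold change of 1.5 in place of no change, Jarid2 and Suz12 still passed. Of all 12187 tested genes, 2319 did.

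**Figure D3:**
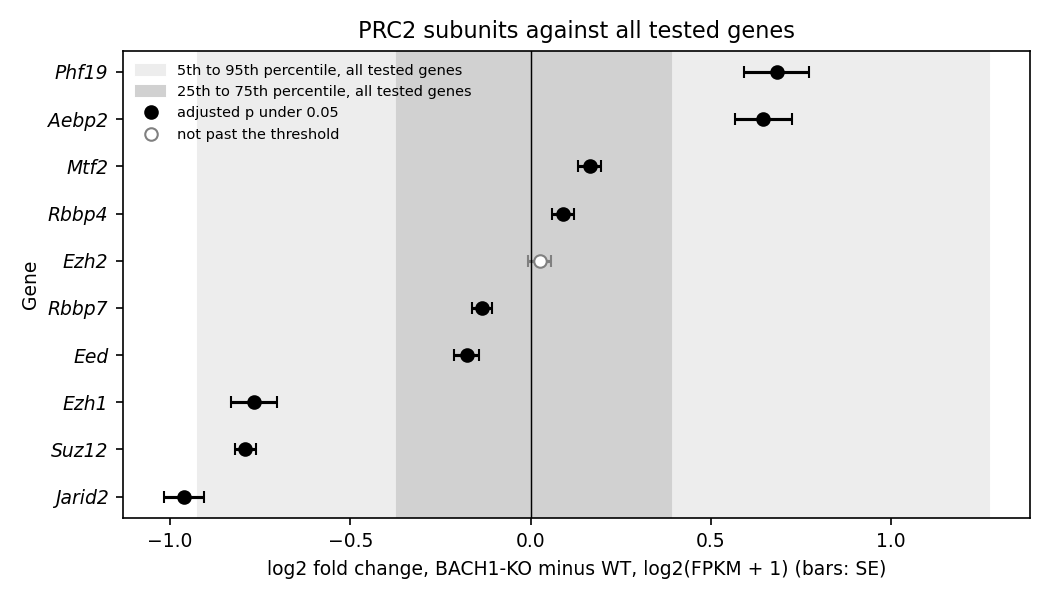
log2 fold change (BACH1-KO minus WT, log2(FPKM + 1)) of each PRC2 subunit with its SE, filled where the adjusted p was under 0.05; grey bands span the 5th to 95th and the 25th to 75th percentiles of all tested genes. Jarid2 at −0.96 is the only subunit outside the wider band, and 5 subunits lie within the narrower one.

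By level, the order in BACH1-KO cells was Rbbp7, Mtf2, Rbbp4, Suz12, Eed, Ezh2, Aebp2, Jarid2, Ezh1 and Phf19, with no overlap between the library ranges of any neighbours. In WT cells it was Rbbp7, Suz12, Mtf2, Rbbp4, Eed, Jarid2, Ezh2, Aebp2, Ezh1 and Phf19. There the ranges of Mtf2 and Rbbp4, of Jarid2 and Ezh2, and of Aebp2 and Ezh1 overlapped. Suz12 thus ranked 4 in BACH1-KO and 2 in WT cells. The 10 subunits summed to 772 ± 4.84 FPKM in BACH1-KO and 873 ± 6.90 FPKM in WT cells (SD, n = 3 each).

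Among 7 further PRC2 partners, 6 were tested, of which 2 rose, 2 fell and 2 did not pass. Of all tested genes 77% were called, 37.3% as higher and 39.7% as lower. Ezhip, listed under its older symbol AU022751 (chrX:6081219-6083419), codes for an inhibitor that binds the catalytic subunit and blocks it. It was at 8.41, 8.55 and 8.99 FPKM in BACH1-KO libraries, against 2.26, 2.49 and 2.53 FPKM in WT libraries. All BACH1-KO values were well above all WT values, with a ratio of means of 3.57 and a log2 fold change of 1.49 (SE 0.06, adjusted p = 2.86e-07), larger in size than that of any of the 10 subunits.

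Epop, listed as E130012A19Rik, codes for a partner of the Polycomb-like form of PRC2 that links it to elongin B and C. It fell, with 76.9, 74.7 and 75.1 FPKM in BACH1-KO libraries and 150.5, 113 and 115 FPKM in WT libraries (log2 fold change −0.72, SE 0.10, adjusted p = 2.21e-04). The 1st WT column was well above the other two WT columns, and the groups did not overlap. Elongin C (listed as Tceb1) rose, at 83.5 ± 0.504 FPKM in BACH1-KO and 65.0 ± 3.34 FPKM in WT cells. Elongin B (listed as Tceb2) fell, at 774 ± 35.3 FPKM in BACH1-KO and 948 ± 82.2 FPKM in WT cells (log2 fold change −0.29), and lost its call with quantile normalization (−0.12, adjusted p = 0.0627). Lcorl was at 5.70 ± 0.266 FPKM in BACH1-KO and 5.84 ± 0.281 FPKM in WT cells and did not pass (adjusted p = 0.659), and Lcor, at 0.231 FPKM in BACH1-KO and 0.635 FPKM in WT cells, was under the filter.

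Of the 3 genes for enzymes that remove the mark PRC2 places, 1 was higher and 2 were lower, where 77% of all tested genes were called (37.3% higher, 39.7% lower). Kdm6a, a lysine 27 demethylase on the X chromosome, was at 11.8 ± 0.295 FPKM in BACH1-KO and 9.84 ± 0.152 FPKM in WT cells (log2 fold change 0.24, SE 0.05, adjusted p = 0.00137). Kdm6b, its inducible relative, was at 2.99 ± 0.0870 FPKM in BACH1-KO and 4.28 ± 0.559 FPKM in WT cells (−0.40, SE 0.09, adjusted p = 0.00332). Uty, the copy on the Y chromosome with little activity, was at 2.52 ± 0.182 FPKM in BACH1-KO and 4.95 ± 0.293 FPKM in WT cells (−0.76, SE 0.07, adjusted p = 2.45e-05).

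PRC1, the partner complex that ubiquitinates histone H2A, had 9 genes higher, 5 lower and 5 not past of 19 tested, with a median log2 fold change of 0.14 (0.05 with quantile normalization). Its 14 calls of 19 compare with 77% over all tested genes. Bmi1 rose, with 8.41 ± 0.637 FPKM in BACH1-KO and 4.10 ± 0.287 FPKM in WT cells, as did Rybp, with 36.6 ± 1.15 FPKM in BACH1-KO and 26.97 ± 0.0976 FPKM in WT cells. Rybp lies on chromosome 6, and its log2 fold change of 0.43 was 0.11 relative to that chromosome's median. Phc3 fell to 1.34 ± 0.0638 FPKM in BACH1-KO, against 3.40 ± 0.261 FPKM in WT cells, and Pcgf2 to 20.9 ± 0.399 FPKM in BACH1-KO, against 28.7 ± 1.64 FPKM in WT cells. PR-DUB, which removes that ubiquitin, had 1 gene higher, 4 lower and 1 not past of 6 tested (median −0.33; 77% of all tested genes were called). Its catalytic subunit Bap1 was at 23.2 ± 0.480 FPKM in BACH1-KO and 34.0 ± 1.72 FPKM in WT cells, Foxk2 and Asxl2 fell too, and Mbd6 rose.

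Other complexes that contain RBBP4 or RBBP7 had 3 genes higher, 10 lower and 7 not past of 20 tested, so 13 of 20 were called, against 77% of all tested genes. The median was −0.13, and −0.02 with quantile normalization. The SIN3 scaffold Sin3a fell to 30.1 ± 0.469 FPKM in BACH1-KO, against 54.4 ± 1.17 FPKM in WT cells, whereas its relative Sin3b rose to 270.5 ± 7.30 FPKM in BACH1-KO, against 214 ± 3.09 FPKM in WT cells. Mta2 of NuRD and Suds3 of SIN3 also fell. DNA replication and proliferation genes, with which several PRC2 subunits are known to be coexpressed, had 2 higher and 10 lower of 12 (median −0.22), against 37.3% higher and 39.7% lower over all tested genes. With quantile normalization there were 2 higher and 5 lower, and the median was −0.03. Mki67 was at 8.67 ± 0.219 FPKM in BACH1-KO and 23.7 ± 0.861 FPKM in WT cells, and the log2 fold changes of Mcm4, Mcm7 and Ccne1 were −0.62, −0.45 and −0.44. The part of this difference in the PRC2 values was not tested.

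**Figure D4:**
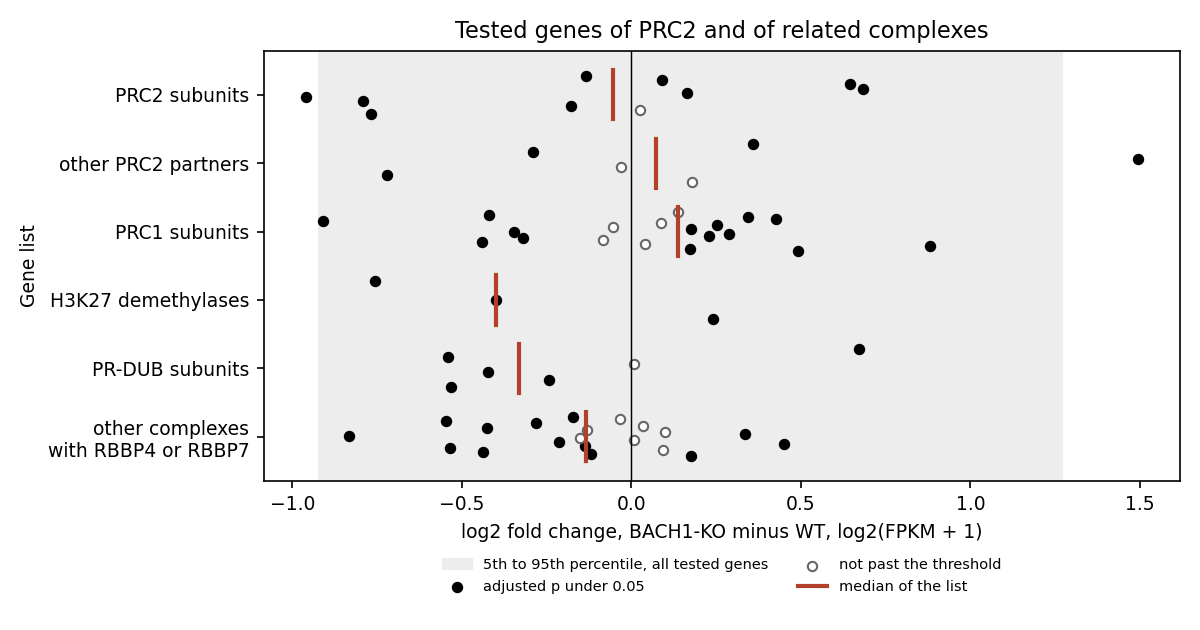
log2 fold change (BACH1-KO minus WT, log2(FPKM + 1)) of every tested gene of PRC2 and of 5 related lists, filled where the adjusted p was under 0.05, with the list's median in red and the 5th to 95th percentile of all tested genes in grey. Ezhip at 1.49 lies outside the band on the right and Jarid2 at −0.96 on the left.

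Developmental regulators known as PRC2 targets in embryonic stem cells were mostly at low levels in both genotypes. Of 60 listed, 59 had a row, 9 were tested, and 3 rose, 4 fell and 2 did not pass. Over all tested genes 37.3% rose and 39.7% fell. Otx2, a forebrain and formative-stage transcription factor, was at 23.2, 24.6 and 20.7 FPKM in BACH1-KO libraries, against 2.82, 1.63 and 2.12 FPKM in WT libraries (log2 fold change 2.92, SE 0.13, adjusted p = 3.99e-07). Pax6, a neural and eye regulator, was at 7.40 ± 0.351 FPKM in BACH1-KO and 0.571 ± 0.244 FPKM in WT cells. It reached the filter only through its BACH1-KO values. Tbx3, which also serves self-renewal, fell to 7.15 ± 0.300 FPKM in BACH1-KO, against 12.7 ± 0.826 FPKM in WT cells. Eomes and Cdkn2a fell as well, and Gata4 and Msx2 did not pass. Otx2 and Pax6 each had BACH1-KO values above all WT values.

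The other 50 regulators were under the filter. Of these, 37 (74%) had a higher mean in BACH1-KO cells, and so did 74.6% of all 6331 genes under the filter. Their groups were separate with BACH1-KO above WT in 38% and below in 4%, against 39.9% and 7.04% of all genes under the filter. Their median level was 0.179 to 0.201 FPKM in BACH1-KO libraries and 0.0702 to 0.0798 FPKM in WT libraries. Genes of any kind with a mean under 0.5 FPKM had medians of 0.0978 to 0.0990 FPKM in BACH1-KO and 0.0217 to 0.0253 FPKM in WT libraries. The silent regulators were thus higher in BACH1-KO libraries about as often as other genes of low level.

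**Figure D5:**
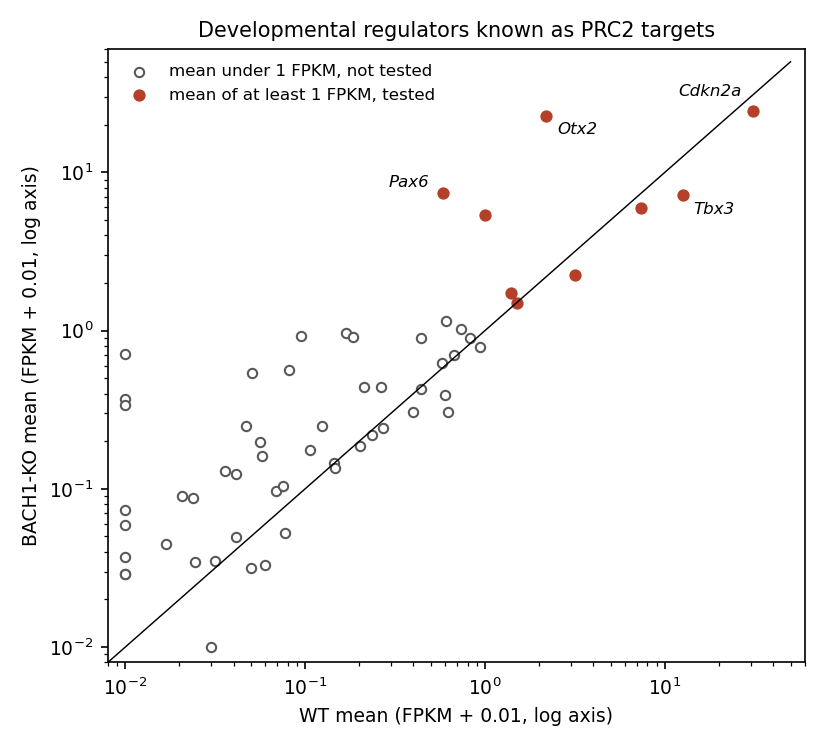
Mean level of 59 developmental regulators known as PRC2 targets in BACH1-KO (vertical axis) and WT (horizontal axis) cells, both FPKM + 0.01 on log axes, with the line of equal levels; filled points were tested. Otx2 and Pax6 lie well above the line, Tbx3 and Cdkn2a below it, and most open points under 1 FPKM lie above it.

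Gene models limit some of these values. Exons of Rbbp4 overlap those of Sync and Gm26722 on the opposite strand over 8.94% and 9.10% of its exon bases, Mtf2 overlaps Tmed5 over 6.93%, Eed overlaps E230029C05Rik over 6.82%, and Rbbp7 overlaps Txlng over 5.98%. Suz12 and Ezh2 overlap noncoding genes over 3.60% and 2.61%. Whether reads were assigned by strand is not given in the sources used here, so reads from these stretches cannot be told apart. Jarid2 and Phf19 shared 0 of their 50-base stretches with other annotated transcripts.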

How the data were processed

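RNA sequencing of 3 BACH1-KO and 3 WT libraries was used. The deposited values are FPKM per gene symbol; per the submitters' processing notes they were made with Cufflinks on mm10. Aligner, annotation and versions: not given in the sources used here. Columns name the genotype but not the sample title. FPKM is relative to the library total, so strongly increased transcripts depress the values of all the rest. Rows with a number in place of a symbol (23, holding 0.0987% of summed FPKM) were left out.

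Log2(FPKM + 1) of genes whose mean over the 6 libraries reached 1 FPKM was fitted with limma 3.58.1 in R 4.3.3 (lmFit, eBayes with a trend), two-sided, with Benjamini-Hochberg adjustment and a threshold of 0.05. The script was tested on simulated data. Shares were compared with exact permutation tests. Tables and figures were made with pandas 2.3.3, numpy 2.4.6 and matplotlib 3.10.9 in Python 3.11.15. Gene positions and shared 50-base stretches come from GENCODE vM21, promoter sequences and synonyms from RefSeq (GRCm38.p6). Relative depth was estimated from values under 0.1 FPKM.

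The members and lists were chosen with earlier results of these data known. The text names all members, all further PRC2 partners and lysine 27 demethylases, up to 4 called genes of each other list with the smallest adjusted p, Bach1, and the 3 genes most like the member with the largest change, except that some genes of the target regulator list are counted but not reported by name here. Other names, the motifs, level classes, shared-stretch check and ratios were chosen after values were seen. The partner list first held a wrong synonym for Ezhip, AU015836, which RefSeq gives to another gene. It was replaced by AU022751 after the values had been seen, so that the list counts 2 higher and 2 lower, where the wrong row had given 1 higher and 3 lower. Alternatives covered the pseudocount, the filter, scaling, prior variance, a fold threshold and leaving out each library.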

Additional observations from a re-analysis of the deposited data

How the results depend on the processing

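No paired analysis was possible because the columns carry no numbers that tie them to sample titles. Under 8 planned kinds of alternative and 1 added after seeing the data, Jarid2 and Suz12 passed the limma threshold every time. Against a minimum fold of 1.5, limma called 2319 genes (1325 higher, 994 lower). The calls were then 2 subunits (0 higher, 2 lower, at unadjusted p under 0.05 0 and 3), 3 target regulators (0 lower, 1 unadjusted), 1 partner, 2 PRC1 genes, 0 demethylases (1 unadjusted), 0 PR-DUB genes (0 unadjusted), 1 gene of other RBBP4 or RBBP7 complexes and 1 replication gene. Ezh1 missed that threshold (adjusted p = 0.0542). A filter at 5 FPKM left 2942 genes higher, 4 target regulators (1 higher) and 1 demethylase. With no filter 27 of 59 target regulators passed, 21 higher, and 11655 of all 18518 genes passed, 6580 higher. Quantile normalization gave 5 subunits higher and 3 lower, left 7 replication genes, and the log2 fold change of Rbbp7 turned to 0.034. Median-of-ratios scaling was run first over all genes above 0 in every library and then, after that output was seen, over the tested genes. It gave 8 subunits called over all genes above 0 (3 higher, 5 lower; Rbbp4 lost, adjusted p = 0.176), with 45.0% of called genes higher, and 9 (4 higher, 5 lower) over tested genes, with 50.5% higher, against 48.4% without scaling. Rbbp4 was also lost with a constant prior variance (adjusted p = 0.0723). Leaving out 1 library gave 8 to 9 subunits called and 8798 to 9344 genes in all. The Ezh1 share then differed by −10.8 to −9.60 and the Rbbp7 share by −4.05 to −3.42 percentage points. Absolute depth is unknown, so no counting error can be given. The cause of these dependences was not tested.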
